A study of Homo sapiens with 6 samples.

Results

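A set of 10 genes that control the G1 phase of the cell cycle was followed in LX-2 cells, a long-established line of human hepatic stellate cells, after stable overexpression of fibroblast activation protein α (FAP). They are the D-type cyclins CCND1, CCND2 and CCND3, their kinases CDK4 and CDK6, the E-type cyclins CCNE1 and CCNE2, the inhibitors CDKN1A and CDKN1B, and their shared target RB1. The 10 genes were taken by symbol from a table of 60748 genes. The set was chosen by its relation to CCND1, which was selected on its higher level in LX-2FAP in these same libraries, so the differences between groups are given for all 10 genes as a description, without p-values. RNA was sequenced from 3 LX-2Vector libraries, whose cells carried the empty vector, and 3 LX-2FAP libraries, whose cells carried the FAP construct. Both kinds of cell were cultured for 24 hours in DMEM with serum, and no other agent is given for either group. Per the study's methods, the construct was delivered by lentivirus in a vector with a ubiquitin promoter, EGFP and puromycin resistance, and stable clones were selected with puromycin. How many clones stand behind each group is not given in the sources used here. A difference between the groups can therefore not be told apart from a difference between the selected cell populations.

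D-type cyclins are made when growth signals reach the cell, bind CDK4 or CDK6 and start the phosphorylation of the retinoblastoma protein RB1. E-type cyclins with CDK2 complete it, which frees E2F transcription factors to switch on genes for DNA replication. CDKN1A (p21) and CDKN1B (p27) bind the complexes and hold the cell in G1. Quiescent stellate cells of the liver divide little, and entry into this cycle is part of their activation after liver injury. Much of the control acts on protein stability and phosphorylation, which RNA sequencing does not measure.

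FAP itself had 42 to 55 counts per library in LX-2Vector and 14805 to 15160 in LX-2FAP, a log2 fold change of 8.33 (SE 0.13). Total counts ran from 17355700 to 26352060 per library. Of 18275 tested genes, 967 (5.29%) passed the edgeR threshold (an adjusted p under 0.05, from here on "called"), with 469 (2.57%) higher and 498 (2.73%) lower in LX-2FAP, and the normalized values of the groups did not overlap for 4818 genes (26.4%). Before adjustment, 4054 of the 18275 tested genes had an edgeR p under 0.05. The highest stellate cell markers in LX-2Vector were VIM at 300.8 ± 7.56, TIMP1 at 131.2 ± 1.81 and COL1A1 at 34.3 ± 3.05 FPKM (fragments per kilobase of transcript, scaled to sequencing depth, with SD, n = 3). NGFR was at 7.65, COL3A1 at 6.22, PDGFRB at 3.51, TAGLN at 2.1, LHX2 at 2.02 and ACTA2 at 1.29 FPKM. HAND2 was at 0.445, RELN at 0.115, COL1A2 at 0.109, HGF at 0.0577, GFAP at 0.0571 and PDGFRA at 0.0549 FPKM. LRAT had no count in any library and DES had at most 1. From TAGLN down, these stellate markers were below the highest hepatocyte marker, SERPINA1 at 2.73 FPKM. Of the 13 stellate markers tested, VIM was called higher and COL1A1, COL3A1 and PDGFRB lower in LX-2FAP (edgeR adjusted p = 0.0372, 0.0135, 0.00765 and 0.0269). Markers of other cell types were low in LX-2Vector. The highest of each list were SERPINA1 at 2.73 (hepatocyte), CD14 at 1.93 (leukocyte), KRT7 at 1.25 (epithelial) and PECAM1 at 0.553 FPKM (endothelial), while ALB was at 0.0297, TTR at 0, PTPRC at 0.592, EPCAM at 0.0927 and CDH5 at 0.0517 FPKM. The summed FPKM of these lists ran from 2.67 to 3.07 in LX-2Vector and 2.16 to 2.4 in LX-2FAP for 6 hepatocyte genes, from 1.57 to 1.82 and 1.21 to 1.61 for 5 endothelial genes, from 1.29 to 2.7 and 1.08 to 1.56 for 5 epithelial genes, and from 2.6 to 2.76 and 2.4 to 2.61 for 4 leukocyte genes. One of these genes, VWF of endothelial cells, was called, lower in LX-2FAP (edgeR adjusted p = 0.0268), and 0 of the other tested markers of these 4 lists were called (1 at an unadjusted p under 0.05).

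All 10 G1 genes passed the filter on low counts. Before any comparison of the groups, their levels per length in LX-2Vector set out the composition of the pathway in these cells. CCND1 was the most abundant by far, at 155.7, 156.4 and 157.4 FPKM in the 3 libraries. CDK4 followed at 42.7 ± 2.37 and RB1 at 36.8 ± 0.707 FPKM. A middle tier held CDKN1A at 15.2 ± 1.16, CDK6 at 11.2 ± 0.397, CDKN1B at 10.3 ± 0.27 and CCND3 at 8.83 ± 0.749 FPKM. The E-type cyclins were lower, with CCNE1 at 6.33 ± 0.422 and CCNE2 at 4.07 ± 0.329 FPKM, and CCND2 was the least abundant at 0.802 ± 0.074 FPKM (SD, n = 3 for each). Each gene lay above the next one in this order in 3 of 3 libraries, with ranges that did not overlap. Between CCND1 at the top and CCND2 at the bottom, the order rests on gene length. By mean normalized counts-per-million in LX-2Vector, CCND1 (739.5) was still highest and CCND2 (6.36) lowest. RB1 (234.8) and CDK6 (136.6) were above CDK4 (131) there. CDKN1B (94.5) and CCND3 (50.5) were above CDKN1A (45.2), and CCNE2 (17.8) was above CCNE1 (15.5). With the lengths of GENCODE release 29 in place of the deposited ones, CDKN1B alone moved up in the order. The deposited values imply a length of 9255 bases for CDKN1B, against 2811 exon bases in GENCODE release 29, and with the shorter length its level would be 33.9 FPKM, just under RB1 and above CDKN1A. For the other 9 genes the length in the release gave a level close to the deposited one, from 0.896 FPKM for CCND2 to 154.3 FPKM for CCND1.

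**Figure D1:**
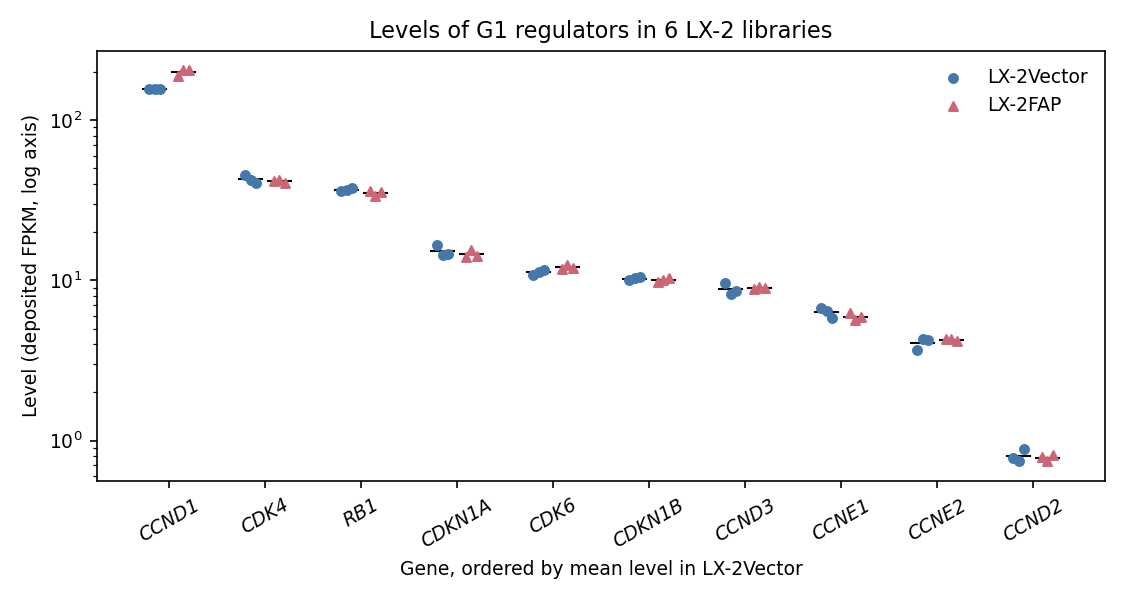
Levels of the 10 G1 genes as deposited FPKM on a log axis, ordered by the mean in LX-2Vector. Circles are the 3 LX-2Vector libraries, triangles the 3 LX-2FAP libraries and bars the group means; CCND1 stands at the top, from 155.7 FPKM upward, CCND2 is below 1 FPKM, and CCND1 and CDK6 are the genes whose groups do not overlap.

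The D-type cyclins were made up almost wholly of CCND1. Its share of the summed D-type cyclin FPKM was 93.7%, 94.6% and 94.3% in the LX-2Vector libraries and 95.2%, 95.4% and 95.4% in the LX-2FAP libraries. CCND3 gave 5.31% ± 0.444 in LX-2Vector and 4.29% ± 0.132 in LX-2FAP, and CCND2 gave 0.483% ± 0.0422 and 0.375% ± 0.0262 (SD, n = 3 each). The sum of all 3 genes was 166.2 ± 0.811 FPKM in LX-2Vector and 209.1 ± 8.84 FPKM in LX-2FAP, while CCND2 and CCND3 together stood at 9.63 ± 0.753 and 9.74 ± 0.115 FPKM. The higher sum in LX-2FAP was thus a higher amount of CCND1 RNA, with the summed level of the other two overlapping between the groups.

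CCND1 (ENSG00000110092) lies on the forward strand of chromosome 11, from 69641087 to 69654474 in GRCh38, and encodes the cyclin D1 that growth factor signals induce. Its normalized counts-per-million (CPM) were 739.6, 736.3 and 742.6 in LX-2Vector replicates 1 to 3 and 909.8, 986.1 and 986.9 in LX-2FAP replicates 1 to 3. Every LX-2FAP library was above every LX-2Vector library, and LX-2FAP replicate 1 was the lowest of its group. The log2 fold change was 0.38 (SE 0.04, 95% interval 0.29 to 0.46), which is a 1.3-fold higher level (1.23 to 1.38). With 12921 to 21808 counts per library it was among the most deeply counted genes, and 76 tested genes had a mean count at least as high, CCND1 included. Its spread in LX-2Vector, a coefficient of variation of 0.424%, was below the counting error of a single library (0.677% to 0.88% over the 6 libraries) and below the median of all tested genes (6.92%), while in LX-2FAP it was 4.61% against a median of 6.54%. Of 464 genes called higher that had 100 or more counts on average, CCND1 was number 21 by log2 fold change. As a description, its log2 fold change was 0.346 and 0.348 in the limma-trend analyses of FPKM, which did not call it and called 2 of 18275 genes in all. In bulk RNA, fewer or more cells in one phase of the cycle and less or more RNA per cell cannot be told apart.

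CCND2 and CCND3, the sister cyclins that can bind the same kinases, showed no such separation. CCND3 was at 55.5, 46.8 and 49.2 CPM in LX-2Vector and at 51.3, 53.1 and 52.3 CPM in LX-2FAP. The LX-2FAP values all fell inside the LX-2Vector range, and the log2 fold change was 0.04 (SE 0.06, 95% interval -0.09 to 0.17). CCND2 was at 6.21, 5.87 and 7.01 CPM in LX-2Vector and at 6.38, 6 and 6.59 CPM in LX-2FAP, again inside that range. Its log2 fold change was -0.01 (SE 0.11, 95% interval -0.24 to 0.23), the widest interval of the set, from 103 to 164 counts per library. An increase of CCND2 as large as that of CCND1 lies outside its interval, and the same holds for CCND3.

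CCND1 lies in a chromosomal region that is often amplified as a block in tumours, and the genes beside it were examined as well. Within 500 kb of CCND1, 26 other annotated genes were listed and 4 of them were tested. TPCN2, an ion channel of endosomes, had a log2 fold change of -0.10 (SE 0.08), MYEOV of 0.24 (SE 0.13), AP003071.5 of 0.09 (SE 0.39) and LTO1 of 0.00 (SE 0.05). None of the 4 was called (edgeR adjusted p = 0.514, 0.296, 0.921 and 0.986), the 95% intervals all included 0, and the groups overlapped for each. FGF19, FGF4, FGF3 and ANO1 had 7, 5, 0 and 2 counts over all 6 libraries together, against 108474 for CCND1. LTO1 lies on the opposite strand and overlaps 10.3% of the exon bases of CCND1. Whether counting used strand is not given in the sources used here, so reads from the shared bases cannot be told apart.

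CDK6 and CDK4 are the catalytic partners of the D-type cyclins, and they differed in how the groups lay. CDK6 was at 132.3, 136.4 and 141 CPM in LX-2Vector and at 145.8, 154.1 and 149 CPM in LX-2FAP. All 3 LX-2FAP libraries were above all 3 LX-2Vector libraries, by a small margin at the closest pair. The log2 fold change was 0.13 (SE 0.04, 95% interval 0.04 to 0.22), and CDK6 was not called. CDK4 was at 139.6, 129 and 124.4 CPM in LX-2Vector and at 130.2, 132.7 and 126.8 CPM in LX-2FAP, so its LX-2FAP libraries lay between the lowest and the highest control. Its log2 fold change was -0.01 (SE 0.05, 95% interval -0.11 to 0.09). Of the exon bases of CDK4, 43.2% are shared with TSPAN31 on the opposite strand, and TSPAN31 had a log2 fold change of -0.01 (SE 0.07).

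Per length, CDK4 held 79.1% ± 1.48 of the summed CDK4 and CDK6 FPKM in LX-2Vector and 77.4% ± 0.438 in LX-2FAP (SD, n = 3 each). The groups overlapped, at 80.7%, 78.9% and 77.7% against 77.9%, 77.3% and 77.1%. In raw counts the kinases were nearly equal, with CDK4 at 48.9% ± 2.26 of their sum in LX-2Vector, because the CDK6 transcript model is longer (12239 bases against 3094).

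The bases ahead of a RefSeq start of CDK4 and of CDK6 are shown because, between these kinases, only CDK6 had groups that lay apart. Each is 250 bases long, written 5′ to 3′ along the gene's own strand in the build GRCh38.p14, with capitals at GC boxes (GGGCGG or its complement CCGCCC, the site of Sp factors) and at E-boxes (CACGTG, the site of MYC and related factors). CDK4 is at chr12:57752311-57752560 and CDK6 at chr7:92836574-92836823, both on the reverse strand. In GENCODE release 29 the gene spans reach up to 57756013 for CDK4 and 92836594 for CDK6, so other starts are annotated as well.
CDK4: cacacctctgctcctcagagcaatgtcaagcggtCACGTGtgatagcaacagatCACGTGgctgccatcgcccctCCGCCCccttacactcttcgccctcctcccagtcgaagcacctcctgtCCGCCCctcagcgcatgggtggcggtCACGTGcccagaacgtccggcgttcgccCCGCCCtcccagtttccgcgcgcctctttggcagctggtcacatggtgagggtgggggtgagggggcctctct
CDK6: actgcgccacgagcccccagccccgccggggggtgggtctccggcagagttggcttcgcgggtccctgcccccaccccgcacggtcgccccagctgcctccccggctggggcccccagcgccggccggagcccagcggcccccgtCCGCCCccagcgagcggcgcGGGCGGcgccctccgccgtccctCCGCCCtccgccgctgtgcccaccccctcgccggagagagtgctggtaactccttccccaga
The CDK4 stretch held 3 GC boxes and 3 E-boxes, and the CDK6 stretch held 3 GC boxes. A further RefSeq start of CDK6, whose 250 bases ahead lie at chr7:92833960-92834209, had 0 of either motif there, and an E-box of CDK6 lay within the 50 bases after a start. The 2 motifs share no base here. In windows from 250 bases before to 50 bases after a start, 7 of the 10 genes matched the RefSeq promoter table, with 10 windows between them. CCND1, CCND2 and CCNE2 were not among them. GGGCGG, read on both strands, was in 7 of the 10 windows, against 45% of 35116 windows of all genes, and CACGTG was in 2 of the 10, against 7.26%. The E2F words TTTGGCGC, TTTCGCGC, TTTCCCGC and TTTGCCGC were in 0 of the 10 windows (3.31% of all), as were TGACTCA of AP-1 (4.95%), TGACGTCA of CREB (1.85%) and TATAAA (11.5%). These counts describe letters only.

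CCNE1 and CCNE2 activate CDK2 after the D-type complexes have acted. CCNE1, on chromosome 19, was at 16.4, 15.7 and 14.3 CPM in LX-2Vector and at 15.4, 14.2 and 14.8 CPM in LX-2FAP. CCNE2, on chromosome 8, was at 16.2, 18.7 and 18.4 CPM in LX-2Vector and at 19, 19.3 and 18.6 CPM in LX-2FAP. The groups overlapped for both genes, since the lowest CCNE2 library of LX-2FAP was below the highest of LX-2Vector. The log2 fold change was -0.06 for CCNE1 (SE 0.08, 95% interval -0.24 to 0.11) and 0.10 for CCNE2 (SE 0.08, 95% interval -0.06 to 0.26). The ratio of CCNE1 to CCNE2 FPKM was 1.57 ± 0.216 in LX-2Vector and 1.39 ± 0.0718 in LX-2FAP (SD, n = 3 each), ranges that overlapped. INTS8, which shares exon bases with CCNE2 on the opposite strand, had a log2 fold change of 0.11 (SE 0.06).

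CDKN1A and CDKN1B, the inhibitors of the set, overlapped between the groups. CDKN1A, the inhibitor p21, was at 49.4, 42.7 and 43.4 CPM in LX-2Vector and at 42.2, 46.7 and 43.1 CPM in LX-2FAP, with a log2 fold change of -0.04 (SE 0.06, 95% interval -0.18 to 0.09). CDKN1B, the inhibitor p27 that accumulates in quiescent cells, was at 92.2, 94.7 and 96.5 CPM in LX-2Vector and at 91.5, 95.2 and 98 CPM in LX-2FAP, with a log2 fold change of 0.01 (SE 0.04, 95% interval -0.09 to 0.10). The amount of CCND1 RNA per inhibitor RNA therefore differed by the difference in CCND1. CCND1 over CDKN1A FPKM was 9.43, 10.8 and 10.8 in LX-2Vector and 13.6, 13.3 and 14.4 in LX-2FAP. CCND1 over CDKN1B FPKM was 15.6, 15.1 and 15 in LX-2Vector and 19.3, 20.1 and 19.6 in LX-2FAP, and for both ratios each LX-2FAP library lay above each LX-2Vector library. With GENCODE lengths the second ratio would be 4.57 ± 0.0909 in LX-2Vector and 5.91 ± 0.135 in LX-2FAP (SD, n = 3 each), since the deposited length of CDKN1B is the longer one. These ratios carry the CCND1 values that chose the set.

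RB1, the pocket protein that the cyclin-bound kinases phosphorylate, was at 232, 233 and 239.3 CPM in LX-2Vector and at 235.5, 219.6 and 231 CPM in LX-2FAP. LX-2FAP replicate 2 was the lowest of the 6 libraries, the groups overlapped, and the log2 fold change was -0.04 (SE 0.04, 95% interval -0.12 to 0.05). Phosphorylation of RB1 was not measured.

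**Figure D2:**
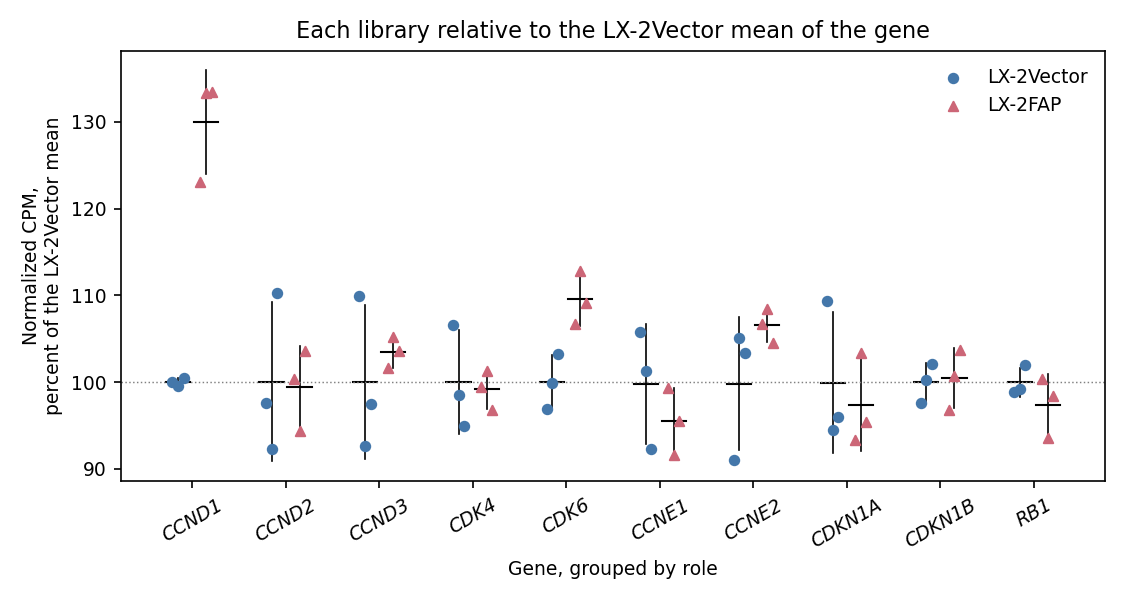
Normalized CPM of each library as a percent of the LX-2Vector mean of that gene, with horizontal bars at the group means and vertical bars of 1 SD (n = 3). The 3 LX-2FAP libraries of CCND1 stand apart, their fitted level 29.9 percent above that of the controls, those of CDK6 lie just above their controls, and the groups of the other 8 genes overlap.

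Across the set, 1 gene was called by edgeR, beside 5.29% of all tested genes. This was CCND1, higher in LX-2FAP, beside 2.57% of all tested genes in that direction. No member was called lower, beside 2.73% (0 by edgeR, 0 at an unadjusted p under 0.05 with a negative change, and 0 by DESeq2). The groups did not overlap for 2 of the 10 genes, CCND1 and CDK6, beside 26.4% of all tested genes. Since CCND1 chose the set, nothing is read from these counts. Of the log2 fold changes, 5 were above 0 and 5 below, with a median of 0.00 against -0.01 for all tested genes. Half-widths of the 95% intervals, which are not adjusted for the number of genes, ran from 0.08 to 0.23. A call at the adjusted threshold needs a larger change than the half-width. CDK6, at 0.13 with an interval from 0.04 to 0.22, was not called.

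**Figure D3:**
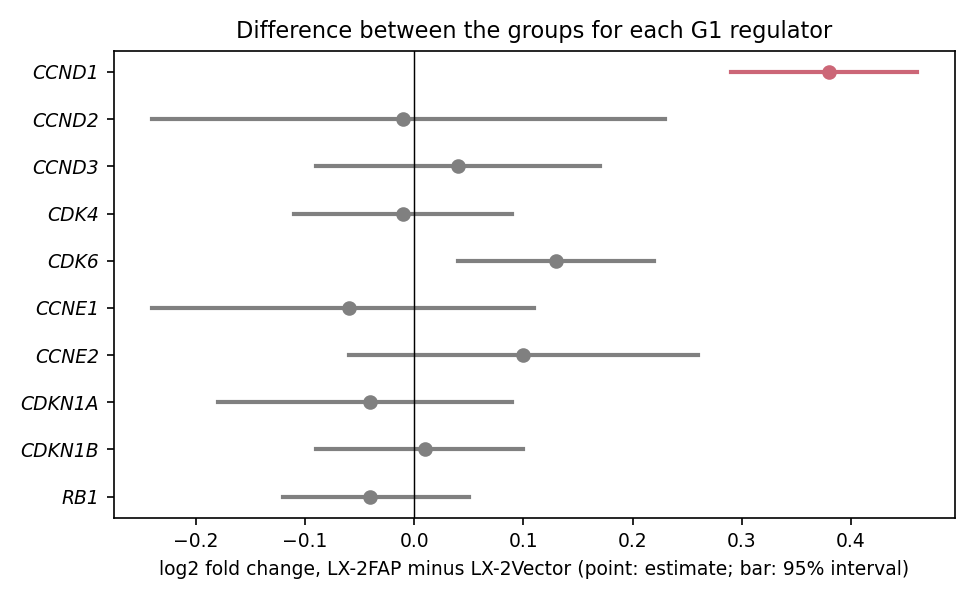
The log2 fold change of each G1 gene, LX-2FAP minus LX-2Vector, with its 95% interval from edgeR; red marks the gene called at an adjusted p under 0.05 over all tested genes. CCND1 stands at 0.38, CDK6 has an interval from 0.04 to 0.22, and the intervals of the other 8 genes include 0.

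The genes whose pattern was most like that of CCND1 were named by the Pearson correlation of log2 normalized CPM over the 6 libraries, among 11555 tested genes that had 100 or more counts on average. They were PDIK1L (r = 0.999), MYO5A (0.997), G3BP2 (0.995), INSYN2B (0.995) and PRRG1 (0.995). All 5 had close values in the 3 LX-2Vector libraries, higher values in LX-2FAP and the lowest LX-2FAP value in replicate 1. PDIK1L, a protein kinase, was at 24.9, 25.1 and 25.1 CPM in LX-2Vector and at 29.1, 31 and 31 CPM in LX-2FAP, and its log2 fold change was 0.28 (SE 0.06). MYO5A, a myosin that carries vesicles along actin, had one of 0.18 (SE 0.04). In all, 310 of the 11555 genes (2.68%) had an r of at least 0.95. Within the set, CDK6 was nearest at 0.92, CCNE2 followed at 0.57, and RB1 and CCNE1 were the most unlike at -0.60 and -0.51. These correlations share libraries and their depth and are a description.

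The rest of the cell-cycle machinery was examined in 6 lists, 155 genes in all, none of them in the set. Of 154 tested genes, 18 (11.7%) were called by edgeR, with 13 higher and 5 lower in LX-2FAP, against 5.29% of all tested genes. That share includes genes with few counts, which were seldom called higher. Besides CCND1, 11555 of the 18275 tested genes had 100 or more counts on average, and 464 of the 469 genes called higher did. Shares matched for counts were not computed for this or the single lists. The 18 called genes had absolute log2 fold changes from 0.15 to 0.27, and the median over all 154 genes was 0.04. The count of 18 changed to 6, 10 and 6 when LX-2Vector replicate 1, 2 or 3 was left out. Beside these, 2.09%, 3.54% and 2.12% of all tested genes were called. It changed to 35, 1 and 0 when LX-2FAP replicate 1, 2 or 3 was left out, beside 10.4%, 0.687% and 0.138%. By limma-trend on FPKM it was 0 (50 and 48 before adjustment), beside 0.0109%. The share of all tested genes before adjustment was not computed for limma-trend.

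**Figure D4:**
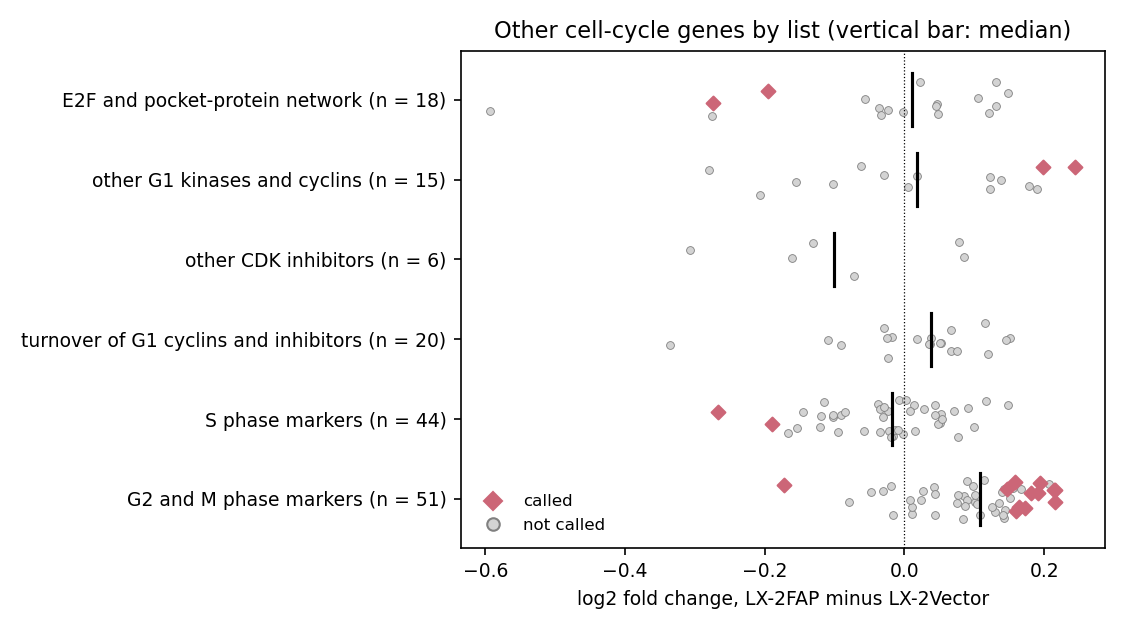
The log2 fold change, LX-2FAP minus LX-2Vector, of each tested gene of the 6 cell-cycle lists, with black bars at the list medians and red diamonds for genes called at an edgeR adjusted p under 0.05. The G2 and M phase list has a median of 0.11 and 11 genes called higher, while the S phase list has a median of -0.02 and 2 genes called lower.

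Upstream of the D- and E-type complexes stands the CDK-activating kinase, made of CDK7, cyclin H (CCNH) and the assembly factor MNAT1. Among 15 tested genes of the other G1 kinases and cyclins, 2 rose, CCNH and CDK7, which is 13.3% called against 5.29% of all tested genes (2.57% higher). CCNH was at 44.6, 50.9 and 48.9 CPM in LX-2Vector and at 53.8, 60.8 and 56.3 CPM in LX-2FAP, with a log2 fold change of 0.24 (SE 0.06, adjusted p by edgeR = 0.0321). CDK7 was at 49.7, 50.4 and 48.7 CPM in LX-2Vector and at 53.9, 60 and 57 CPM in LX-2FAP, with a log2 fold change of 0.20 (SE 0.05, adjusted p by edgeR = 0.0418). Their groups did not overlap, as for 26.4% of all tested genes. MNAT1 had a log2 fold change of 0.19 and missed the threshold (edgeR adjusted p = 0.055), as did cyclin A2 (CCNA2) at 0.14 (adjusted p = 0.0585). CDK2, the partner of the E-type cyclins, was at -0.06 (SE 0.04, adjusted p = 0.448). The calls of CCNH and CDK7 held in 7 and 6 of 14 alternative analyses, with adjusted p up to 0.161 and 0.194.

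Downstream of RB1, 2 of 18 tested genes of the E2F and pocket-protein network fell and 0 rose, which is 11.1% called against 5.29% of all tested genes. Log2 fold changes were above 0 for 9 and below 0 for 9. Before adjustment 5 had an edgeR p under 0.05, beside 4054 of all 18275 tested genes. E2F1, the activator E2F that RB1 restrains, was at 88.5, 83.3 and 82.7 CPM in LX-2Vector and at 77.7, 74.4 and 70.3 CPM in LX-2FAP, a log2 fold change of -0.20 (SE 0.05, adjusted p by edgeR = 0.0359). MYBL2, an E2F target that acts in late S phase and G2, was at 93.8, 84.2 and 95.6 CPM in LX-2Vector and at 83.4, 73.1 and 69.8 CPM in LX-2FAP, a log2 fold change of -0.27 (SE 0.06, adjusted p by edgeR = 0.0252). Every LX-2FAP library was below every LX-2Vector library for both genes, as the groups were apart for 26.4% of all tested genes. E2F2 had a log2 fold change of -0.28 and missed the threshold (adjusted p = 0.0546), E2F3 was at 0.12 (adjusted p = 0.308), and the pocket proteins RBL1 and RBL2 were at 0.05 and -0.04 (adjusted p = 0.577 and 0.803). The calls of E2F1 and MYBL2 held in 7 and 8 of 14 alternative analyses, with adjusted p up to 0.251 and 0.176. DESeq2 also called 0 genes of the list higher and 2 lower.

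Of the 6 other CDK inhibitors, edgeR called 0 (1 at an unadjusted p under 0.05) and DESeq2 called 0. Beside these stand 5.29% and 5.64% of all tested genes, so with so few genes a count of 0 does not set the list apart. The INK4 inhibitors, which bind CDK4 and CDK6, had log2 fold changes of -0.07 for CDKN2A, -0.16 for CDKN2B, -0.13 for CDKN2C and 0.09 for CDKN2D (edgeR adjusted p = 0.591, 0.331, 0.14 and 0.607). Of 20 genes for the turnover of G1 cyclins and inhibitors, edgeR likewise called 0 (3 at an unadjusted p under 0.05) and DESeq2 called 1. Beside the same shares of all tested genes, these counts do not set the list apart either. Before adjustment, 4054 of all 18275 tested genes had an edgeR p under 0.05. SKP2, the subunit that targets p27 for destruction, was at -0.02 (SE 0.05, adjusted p by edgeR = 0.877).

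In the S phase list, 2 of 44 tested genes fell and 0 rose. This is 4.55% called, near the 5.29% of all tested genes, so the count does not set the list apart. Before adjustment 10 had an edgeR p under 0.05, beside 4054 of all 18275 tested genes, and DESeq2 also called 0 higher. TK1, the thymidine kinase of S phase, was at 149.4, 141.3 and 145.4 CPM in LX-2Vector and at 130.4, 124.5 and 127.7 CPM in LX-2FAP, a log2 fold change of -0.19 (SE 0.04, adjusted p by edgeR = 0.0202). MCM7, a subunit of the replicative helicase, was at 195.5, 184.3 and 203.2 CPM in LX-2Vector and at 181.4, 140.8 and 162 CPM in LX-2FAP, a log2 fold change of -0.27 (SE 0.07, adjusted p by edgeR = 0.035). PCNA, the sliding clamp of DNA polymerase, was at -0.02 (edgeR adjusted p = 0.787). The summed level of the list overlapped in CPM, at 5802 to 5892 in LX-2Vector and 5551 to 5853 in LX-2FAP. In deposited FPKM the sums did not overlap, at 1471 to 1487 in LX-2Vector and 1378 to 1450 in LX-2FAP. The calls of TK1 and MCM7 held in 8 and 6 of 14 alternative analyses, with adjusted p up to 0.139 and 0.154, and DESeq2 did not call MCM7. The count of 2 was 0, 1 and 0 when LX-2Vector replicate 1, 2 or 3 was left out, 5, 0 and 0 when LX-2FAP replicate 1, 2 or 3 was left out, 0 by limma-trend on FPKM, and 4 with the replicate block, with library size alone or with no filter. The share of all tested genes called in these fits ran from 0.0109% by limma-trend to 10.4% without LX-2FAP replicate 1.

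The G2 and M phase list held more of the calls. Of 51 tested genes, 11 rose and 1 fell, which is 23.5% called against 5.29% of all tested genes, and 45 had a log2 fold change above 0. The median was 0.11, against -0.01 for all tested genes. The summed level was 11515 to 11812 CPM in LX-2Vector and 12390 to 12580 CPM in LX-2FAP, so the groups did not overlap. For single genes this held for 26.4% of all tested. The sums of the other G1 kinases and cyclins (976.7 to 1003 against 1020 to 1029 CPM) did not overlap either. Nor did those of the turnover list (2344 to 2380 against 2412 to 2507 CPM), while those of the E2F, CDK inhibitor and S phase lists overlapped in CPM. In deposited FPKM the turnover sums overlapped (522.2 to 550.8 against 541.2 to 590.1). The E2F sums were apart in FPKM (296.3 to 302 against 283 to 291), as were those of the S phase list. The G2 and M, other G1 and CDK inhibitor lists lay alike in both units. Genes of a list share the same 6 libraries and are not independent of each other. CENPE, a kinesin of the kinetochore, rose by 0.22 (SE 0.05), from 188.3 ± 15.5 to 218.3 ± 9.56 CPM. HMMR, a spindle protein, rose by 0.21 (SE 0.04), from 196.9 ± 7.4 to 228.4 ± 7.7 CPM. NUF2, of the outer kinetochore, rose by 0.21 (SE 0.05), and KIF20B and ANLN, which act in cytokinesis, by 0.19 each (SE 0.05 and 0.04). The edgeR adjusted p-values of CENPE, HMMR, NUF2, KIF20B and ANLN were 0.0335, 0.0136, 0.0186, 0.0291 and 0.0162. CCNB1, the mitotic cyclin, rose by 0.15 (SE 0.04, adjusted p by edgeR = 0.0356), while MKI67 was at 0.01 (SE 0.04, adjusted p = 0.905). The gene that fell was CBX5, the heterochromatin protein HP1α, by 0.17 on the log2 scale (edgeR adjusted p = 0.0168).

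The count of 11 moved with single libraries and with scaling. Calls over all tested genes also moved with single libraries. Leaving out LX-2FAP replicate 1, 2 or 3 gave 18, 1 and 0, beside 10.4%, 0.687% and 0.138% of all tested genes. Leaving out LX-2Vector replicate 1, 2 or 3 gave 5, 6 and 6, beside 2.09%, 3.54% and 2.12%. DESeq2 on all libraries gave 18, beside 5.64%. The count was 4 when libraries were scaled by their totals alone, beside 5.73%. It was 0 by limma-trend on FPKM, beside 0.0109% (20 and 19 before adjustment, for pseudocounts of 1 and 0.1). Between 39 and 45 of the 51 genes had a log2 fold change above 0 under all 14 alternatives.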

How the data were processed

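The authors aligned reads with HISAT2 2.0.5, counted them per gene with featureCounts 1.5.0-p3 and deposited whole-number counts, not normalized, per library. The deposited FPKM values were computed by the authors from count and gene length. The submitters' processing notes list the build hg18, although 58337 of 60605 Ensembl identifiers in the table occur in GENCODE release 29 (GRCh38), from which positions were taken; promoter bases are from RefSeq (GRCh38.p14). The annotation used and strandedness of counting are not given in the sources used here. The labels describe rRNA depletion, whereas the methods add a poly(A) step, so the RNA classes kept are not settled. The deposited table also pairs genes with GO and KEGG terms, which were not used here.

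The members and gene lists were chosen with earlier results of these data known. Groups and replicate numbers came from sample titles. Counts were tested with edgeR 4.0.16 (TMM, quasi-likelihood test, default filter with a minimum count of 10 and a minimum total of 15), with no covariate, Benjamini-Hochberg adjustment across all 18275 tested genes and calls at an adjusted p under 0.05. All p-values are 2-sided. CPM are normalized counts-per-million, and standard errors and 95% intervals come from the test statistic. Levels between genes were compared as deposited FPKM, with no test. The labels do not say whether libraries came from separate cultures, so p-values then measure the spread between these samples, which may be technical. Within groups, pairs of libraries had a chi-square over its degrees of freedom between 2.02 and 4.99, above counting noise. The scripts were tested on simulated counts.

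Alternatives were the Wald test of DESeq2 1.42.0, its size factors in edgeR, scaling by library size alone, no filter or a stricter one (10 counts in every library), limma-trend (limma 3.58.1) on log2 FPKM with pseudocounts of 1 or 0.1, a replicate block, CPM in place of FPKM for shares, and each library left out in turn. Named genes were the members, FAP, the called genes of each list (at most the 5 with the largest change), the 5 genes most correlated with CCND1 and genes within 500 kb of it. The other list members and markers named, such as MNAT1, CDK2, E2F2, CDKN2A, SKP2, PCNA, CCNB1, MKI67 and CBX5, and the overlapping genes TSPAN31 and INTS8, were picked after their values were seen. A further gene list is not reported here.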

Additional observations from a re-analysis of the deposited data

How the results depend on the processing

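The members' values are a description, since CCND1's rise in these libraries chose the set, and nothing is drawn from repeated calls. The log2 fold change of CCND1 ran from 0.35 to 0.42 over the 14 alternatives. Both limma-trend analyses on FPKM called 0 of the 10 G1 genes, and 0 higher, with 2 at an unadjusted p under 0.05 each, and each called 2 genes (0.0109%) of all tested; CCND1 stood at 0.346 and 0.348 there. Signs changed only for members with log2 fold changes near 0. With a library left out, CCND2 ran from -0.0479 to 0.0721 (positive when LX-2Vector replicate 3 or LX-2FAP replicate 2 was dropped), CDK4 from -0.0432 to 0.0377 (positive when LX-2Vector replicate 1 or LX-2FAP replicate 3 was dropped), CDKN1A from -0.0861 to 0.0293 (positive when LX-2Vector replicate 1 was dropped) and CDKN1B from -0.0165 to 0.0348 (negative when LX-2Vector replicate 1 or LX-2FAP replicate 3 was dropped). CDKN1B was also at -0.0227 with library size alone, and at -0.0207 and -0.0226 by limma-trend with pseudocounts of 1 and 0.1. Of the other cell-cycle genes, 18 were called. The count was 32 with no filter on low counts, 0 and 0 by limma-trend (50 and 48 at an unadjusted p under 0.05), and from 0 to 35 with a library left out: 6, 10 and 6 without LX-2Vector replicate 1, 2 and 3, and 35, 1 and 0 without LX-2FAP replicate 1, 2 and 3. The cause was not tested, and over all tested genes the calls ran from 26 without LX-2FAP replicate 3 to 1949 without LX-2FAP replicate 1. In CPM in place of FPKM, CCND1 was 92.9% of the D-type cyclins and CDK4 48.9% of CDK4 and CDK6, since the measure per length is dropped.

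The labels give same-numbered libraries of the groups no link beyond the number. The correlations of their deviations from the group means were -0.0389, 0.0436 and -0.00962. Such values cannot show whether the libraries shared a culture or preparation. With the replicate block 975 genes were called in place of 967, and 1 of the 10 members. No depth limit stood behind CCND1, while CCND2 had 103 counts in its shallowest library and the widest interval.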
